A study of Caenorhabditis elegans with 45 samples.

Results

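Cuticlins are structural proteins of the nematode cuticle, and the genes described here are those whose WormBase identifier carries a symbol starting with cut- or cutl- and a number. This name rule found 35 of the 20182 genes in the count table, 6 cut genes and 29 cutl (cuticlin-like) genes, and all 35 are annotated as protein coding. They were followed in polyadenylated RNA of whole Caenorhabditis elegans, in 45 libraries that form 3 time courses with 1 library per time point. The course called continuous N2 followed the standard laboratory strain from hatched larvae put on food, in 16 libraries at hours 21 to 36 of the sample names; the labels give 22 to 37 hours, with slow growth as the reason, and all N2 hours in the text are those of the names. In the dauer exit course N2 dauer larvae, a non-feeding diapause stage with its own cuticle, were put on food at hour 0 and sampled at each of hours 1 to 22, in 22 libraries. The third course, called glp-4, sampled worms with glp-4(bn2), an allele that at its restrictive temperature prevents most germ cells from forming, in 7 libraries taken every 2 hours from hour 40 to hour 52. Dauer larvae from before feeding were not analysed here, so hour 1 is the closest to the dauer state, and the worms of all 3 courses were on food. The sources used here give no growth temperature.

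The epidermis secretes a new cuticle before each molt. Cuticlins make up the part of the cuticle that detergents and reducing agents do not dissolve, where they are joined by covalent cross-links between tyrosines. Most of them are zona pellucida (ZP) domain proteins, which are made with a membrane anchor, cut from it by proprotein convertases and then polymerise at the cell surface. CUT-2 is the exception among the cut proteins, being a repeat-rich secreted protein without a ZP domain. ZP cuticlins shape the alae, the ridges that run along the body above the lateral seam cells and that are present in larvae of the earliest stage, in dauer larvae and in adults. CUT-1, CUT-5 and CUT-6 are known for the alae of dauer larvae, and CUT-3 and CUT-5 for those of the earliest larval stage. Much less is known of the cutl genes, and no role is given here for single ones.

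The 16 N2 libraries held 18512549 to 43984242 counts, the 22 dauer exit libraries 18521397 to 23904100 and the 7 glp-4 libraries 23978316 to 36817376. Over 990 pairs of libraries none looked like a library deposited again, the smallest chi-square per gene being 14.5, between hours 4 and 5 of dauer exit. The members lie on all 6 chromosomes, with 9 on chromosome II, 7 on chromosome I, 5 each on chromosomes IV, V and X and 4 on chromosome III. The courses checked out against their labels in 1 respect that could be measured: the germline gene glh-1 ranged from 32.3 to 48.1 CPM (counts scaled to the library total) in glp-4 and from 295 to 752 CPM in N2. The epidermal collagen genes dpy-7, rol-6 and dpy-10, the markers of the tissue that makes cuticle, waved in both N2 courses by the test described below, with N2 maxima of 828, 1819.9 and 776 CPM; in dauer exit hours 1 to 3, however, their means were 0.0321, 0.0455 and 0.169 CPM. With 1 library per time point, the p-values below measure only the scatter of libraries around fitted curves. Because whole worms were sampled, fewer cells of a type and less RNA per cell cannot be told apart in any value below.

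On a scale that allows genes to be compared, CPM per kilobase of annotated exon, cut-2 stood far above the other members in most libraries. It was the highest member in all 16 N2 libraries, in all 7 glp-4 libraries and in the 15 dauer exit libraries of hours 8 to 22. Its level per kilobase had a median of 429 in N2, against 11.4 for cutl-20, the next in order, and 10.8 for cutl-15, 10.7 for cutl-14 and 10.4 for cut-4. Those 4 medians lie within the range of each of these genes over the course (3.75 to 24.1 for cutl-20). That range includes any change with the hour, and whether these neighbours differed in level was not tested. At N2 hour 25 cut-2 made up 94.7% of the summed level per kilobase of the 35 members, and at N2 hour 30 it made up 19.8%. The lowest N2 medians were those of cut-1 (0.0354 CPM per kilobase), cutl-7, cutl-1 and cutl-13 (0.149).

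In continuous N2 most cuticlin transcripts rose and fell in waves. The wave was tested as an 8 h cosine curve beside a linear trend, and a gene was called waving at an adjusted p under 0.05 with an amplitude of at least 0.5 (log2, from mean to peak). By this rule 26 of the 35 members waved, with 32 members passing the filter on low counts, while 26.3% of all genes tested did. The amplitudes of the 26 ran from 0.54 to 2.83 with a median of 1.78. The median over the 32 members tested was 1.23, and over all genes tested it was 0.27.

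The cut genes showed the waves clearly. cut-2 (WBGene00009983; chromosome V, 13414949 to 13416064, build WBcel235, 2 exons) ranged from 35.6 CPM at hour 29 over a median of 398 CPM to 2464 CPM at hour 25, and it rose again to 858 CPM at hour 33. Its amplitude was 2.83 ± 0.22 (SE, log2), the largest of all members, with fitted peaks at 25.3 ± 0.10 h and 8 h later. cut-6 (WBGene00000853; chromosome III, 10911460 to 10916665), the dauer alae and body cuticle member, ranged from 0.337 over a median of 3.36 to 14.8 CPM. It reached 14.8 CPM at hour 24 and 14.5 CPM at hour 31, with troughs of 0.485 CPM at hour 28 and 0.337 CPM at hour 36. The fitted wave peaked at 23.6 h, and its amplitude was 2.55 ± 0.14. Its maxima in the successive waves were nearly alike.

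cut-3, cut-4 and cut-5 were much higher in the second wave. cut-3 (WBGene00009041; chromosome II, 8445169 to 8446831), which is needed for alae of the earliest larval stage, stayed at 0.145 to 0.534 CPM at hours 21 to 28 and reached 7.19 CPM at hour 32. cut-5 (WBGene00011104; chromosome X, 10333858 to 10338200), needed for alae of the same stage and of dauer larvae, reached 1.79 CPM at hour 26 and 8.05 CPM at hour 32. cut-4 (WBGene00008482; chromosome II, 10436136 to 10440087) reached 30.7 CPM at hour 25 and 76.4 CPM at hour 34. All 3 waved, with amplitudes of 2.07 ± 0.38 for cut-3, 1.46 ± 0.20 for cut-5 and 1.80 ± 0.16 for cut-4, and with peaks at 23.3, 24.2 and 25.5 h. The sixth cut gene, cut-1 (WBGene00000851; chromosome II, 11269122 to 11271660), had 0 to 17 counts in the N2 libraries and did not pass the filter. It was highest at hour 33, with 17 counts, against at most 0.136 CPM in the other N2 libraries. Fitted without the filter, its wave was called, with amplitude 1.54 ± 0.48 (adjusted p = 0.0192 in edgeR's quasi-likelihood test).

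**Figure D1:**
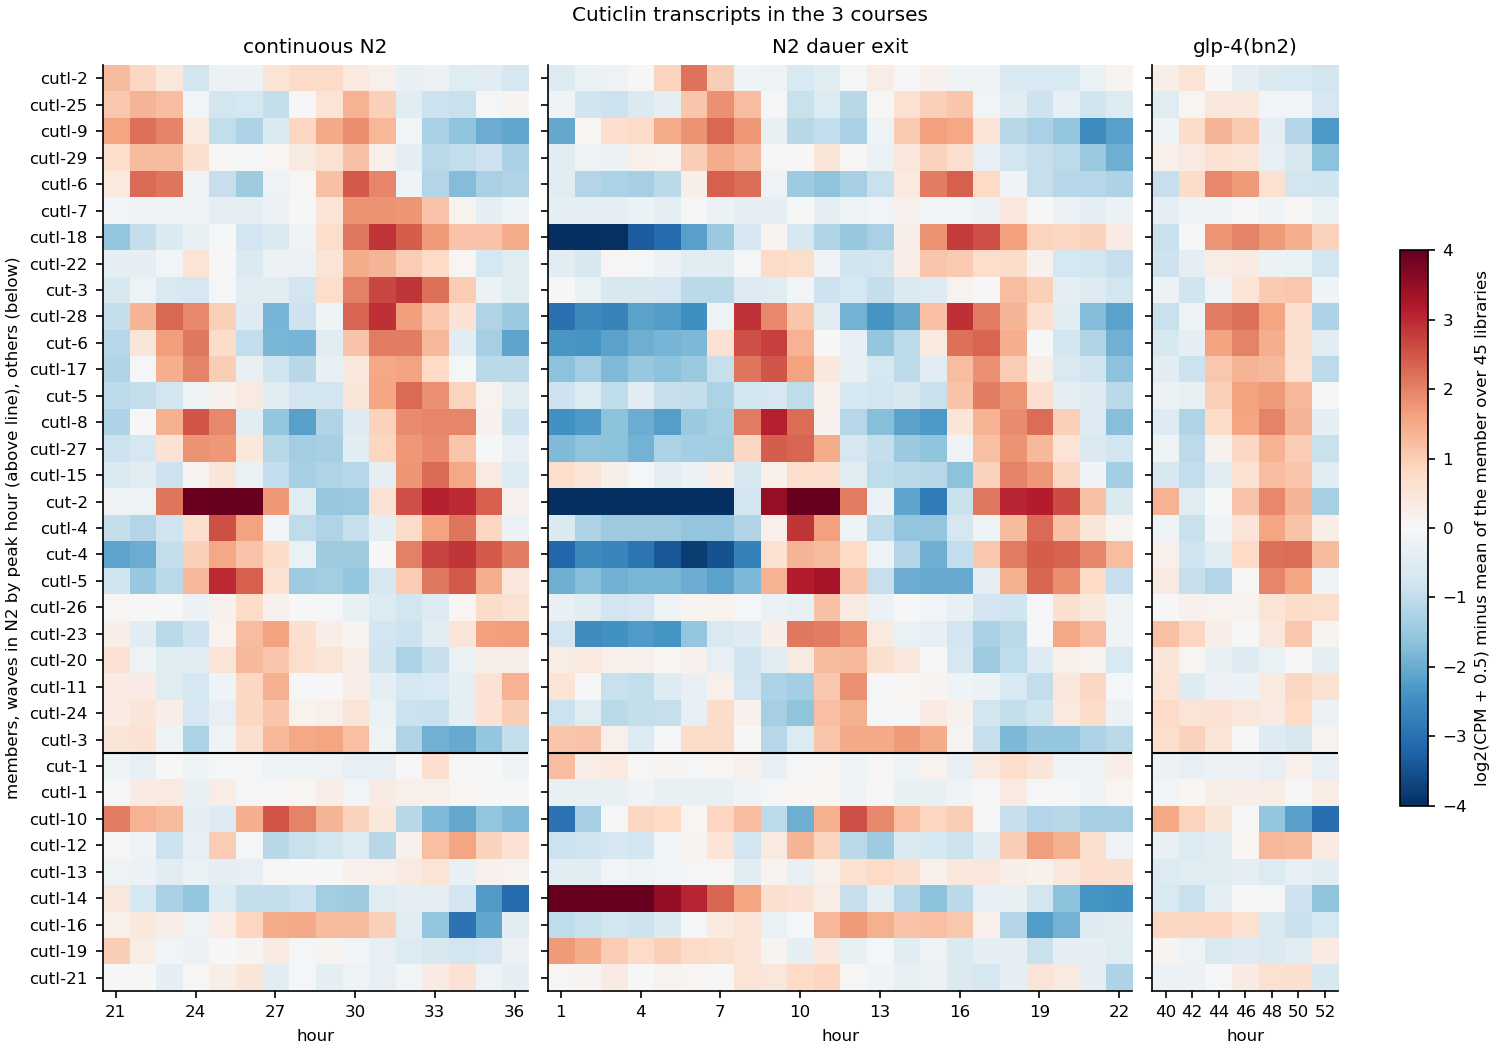
Level of each member in each library, as log2(CPM + 0.5) minus the mean of that member over the 45 libraries, so that red is above and blue below the member's own mean; columns are hours within a course, and members above the black line are the 26 called waving in N2, in order of fitted peak. The red bands step rightwards from cutl-2 at the top to cutl-3 at the bottom and recur after about 8 h, and cutl-14 is red in the first hours of dauer exit.

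Peaks of the 26 waving members were spread over the whole cycle. By fitted N2 peak, 6 members peaked between hours 21 and 23, 10 between hours 23 and 25, 5 between hours 25 and 27 and 5 between hours 27 and 29. The earliest group was made up of cutl-2, cutl-6, cutl-7, cutl-9, cutl-25 and cutl-29. cutl-9, an example of it, ranged from 0.440 over a median of 3.93 to 17.7 CPM, with maxima at hours 22 and 30 and an amplitude of 1.82 ± 0.23. cutl-6 ranged from 0.273 over 1.81 to 13.5 CPM, with the same hours of maximum and an amplitude of 2.18 ± 0.27. At hours 26 and 34, 4 h after these maxima, cutl-9 was at 1.21 and 0.796 CPM and cutl-6 at 0.458 and 0.273 CPM. The other amplitudes in the group were 2.75 ± 0.52 for cutl-7, 1.75 ± 0.22 for cutl-25, 1.04 ± 0.32 for cutl-2 and 0.62 ± 0.16 for cutl-29.

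The largest group, with peaks between hours 23 and 25, held cut-3, cut-5 and cut-6 together with cutl-8, cutl-15, cutl-17, cutl-18, cutl-22, cutl-27 and cutl-28. cutl-28 ranged from 1.23 over a median of 10.4 to 47.8 CPM, with an amplitude of 2.23 ± 0.20. It was at 30.6 CPM at hour 23, fell to 1.23 CPM at hour 27 and reached its maximum at hour 31. cutl-8 rose to 16.3 CPM at hour 24, fell to 0.145 CPM at hour 28 and stood at 10.4 to 10.7 CPM at hours 32 to 34. cutl-17 and cutl-27 had amplitudes of 2.13 ± 0.15 and 2.09 ± 0.18. Those of cutl-8, cutl-15, cutl-18 and cutl-22 were 2.30 ± 0.28, 1.18 ± 0.22, 1.10 ± 0.13 and 0.98 ± 0.18.

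The group that peaked between hours 25 and 27 held cut-2 and cut-4 with cutl-4, cutl-5 and cutl-26. cutl-5 ranged from 0.333 over a median of 3.03 to 18.8 CPM, and its amplitude of 2.66 ± 0.25 was the third largest after cut-2 and cutl-7. cutl-4 ranged from 0.154 over 0.834 to 8.54 CPM, with an amplitude of 2.57 ± 0.21, while that of cutl-26 was 0.54 ± 0.14. The fitted peaks of cutl-5 and cutl-4, at 25.6 ± 0.11 and 25.4 ± 0.10 h, lay close to that of cut-2. The last group, cutl-3, cutl-11, cutl-20, cutl-23 and cutl-24, peaked between hours 27 and 29, when cut-6 and cutl-8 were at a low point (0.485 and 0.145 CPM at hour 28). Its amplitudes were smaller, with a median of 0.98 against 2.08 and 2.57 in the middle groups. cutl-3 was at 19.4 and 19.6 CPM at hours 28 and 29 and at 1.18 CPM at hour 34. cutl-23 peaked with 30.9 CPM at hour 27 and stood at 32.7 CPM at hour 36, the last library. The amplitudes were 1.27 ± 0.14 for cutl-23, 1.14 ± 0.31 for cutl-3, 0.98 ± 0.21 for cutl-11, 0.92 ± 0.16 for cutl-20 and 0.69 ± 0.17 for cutl-24.

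Of the other members, cutl-10 and cutl-12 had amplitudes of 1.04 ± 0.33 and 0.81 ± 0.27 but missed the adjusted p (0.0665 and 0.0562 in edgeR's quasi-likelihood test). cutl-19 and cutl-21 passed the p but not the size, with amplitudes of 0.41 and 0.44. cutl-14 and cutl-16 missed the p, with amplitudes of 0.38 ± 0.24 and 0.72 ± 0.37. cut-1, cutl-1 and cutl-13 did not pass the filter. The 9 members without a call are thus 2 that missed the size, 4 that missed the p and 3 that were not tested.

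In dauer exit the largest fall of any member over the whole course was that of cutl-14 (WBGene00015231; chromosome I, 10628743 to 10631674, plus strand, 6 exons). At hour 1 it stood at 2035 CPM, rank 71 of the 20182 genes in that library. It was then 1553 CPM at hour 2, 690.4 CPM at hour 3, 378 CPM at hour 4, 242 CPM at hour 5 and 175 CPM at hour 6. It went on to 106 CPM at hour 7, 62.4 CPM at hour 8, 32.5 CPM at hour 9 and 10.6 CPM at hour 12. Each of the 11 steps from hour 1 to hour 12 was downward.

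Over hours 1 to 6 the fitted level of cutl-14 fell by 3.63 ± 0.24 (SE) on the log2 scale, with an adjusted p of 0.000471 in edgeR's quasi-likelihood test. A straight line over these hours gives a halving every 1.38 h (1.22 to 1.58 h for the slope plus and minus 2 SE). The CPM at hour 1 was 11.7 times that of hour 6, 192 times that of hour 12 and 593 times that of hour 22. Over the whole course cutl-14 fell by 8.77 ± 0.54 on the log2 scale, the 15th largest of the falls among 15977 genes tested, whereas its early fall ranked 287 of 13845. At every alternative setting and without each of the 6 early libraries in turn the call held.

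The level at hour 1 was 71.0 times that of the highest N2 library. In N2 cutl-14 ranged from 2.02 over a median of 10.8 to 28.7 CPM, and in glp-4 from 6.47 over 13.3 to 20.3 CPM. From hour 11 on, the dauer exit libraries were below the highest N2 library. Within that range cutl-14 then stood at 6.28 CPM at hour 15, 16.5 CPM at hour 18 and 3.43 CPM at hour 22. Its wave over hours 11 to 22 was called, with an amplitude of 0.79 ± 0.15. That call was lost at 2 of 9 alternative settings, and in N2, with an amplitude of 0.38, cutl-14 was not called waving.

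**Figure D2:**
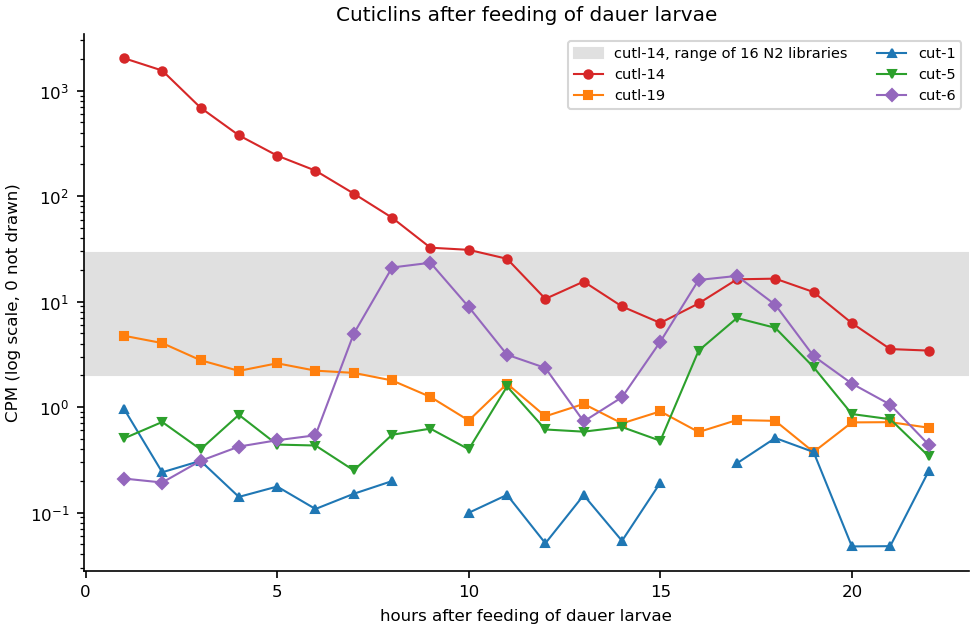
CPM, on a log axis, of cutl-14, cutl-19 and the dauer alae cuticlins cut-1, cut-5 and cut-6 in the 22 dauer exit libraries against hours after feeding; libraries with 0 counts are not drawn, and the grey band is the range of cutl-14 in the 16 N2 libraries. cutl-14 falls from 2035 CPM into the band by hour 11, while cut-6 stays between 0.193 and 0.540 CPM at hours 1 to 6 and is highest at hour 9, and cut-5 is highest at hour 17.

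The fall of cutl-14 was matched by a change in which cuticlin was most abundant. Per kilobase of exon, cutl-14 made up 96.4% of the summed level of the 35 members at hour 1, 67.0% at hour 6 and 23.9% at hour 8. At hour 8 cut-2 passed it, with 66.3 against 62.2 CPM per kilobase, and at hour 9 they made up 89.1% and 2.33% of the sum. cut-2 had 0.042 CPM at hour 1, no counts at hours 2 and 3, 2.81 CPM at hour 7, 61.5 CPM at hour 8 and 2262 CPM at hour 10. Without cutl-14 the summed level of the members was 65.2 to 85.6 CPM per kilobase through hours 1 to 6.

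A change was called at an adjusted p under 0.05 and a size of at least 1 on the log2 scale. By this rule cutl-14 was the 1 member called lower over hours 1 to 6, where 25 members passed the filter and 16.9% of all genes tested were called lower. 2 others passed the p with a change under that size. cutl-19 went from 4.75 CPM at hour 1 over 4.04 and 2.78 to 2.21 CPM at hour 6 and 0.637 CPM at hour 22. Its early change was -0.94 ± 0.31 and its whole-course change was called, a fall by 2.62 ± 0.34 on the log2 scale with an adjusted p of 5.45e-09 in edgeR's quasi-likelihood test. cutl-19 at hour 1 was also above the highest N2 library (2.70 CPM, at hour 21). cutl-15 went from 35.1 CPM at hour 1 to 18.2 CPM at hour 6, a change of -0.92 ± 0.17, before its waves. With library size as the only scaling, which shifted the members' early changes by a median of -0.18, both were called, at -1.12 for cutl-19 and -1.09 for cutl-15. The split of early calls was then 7 higher and 3 lower.

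The dauer alae cuticlins behaved unlike each other after feeding. cut-1 had 23 counts at hour 1 (0.966 CPM), 5 counts at hour 2, 7 at hour 3, 3 at hour 4, 4 at hour 5 and 2 at hour 6. The hour 1 library was the highest of all 45 for cut-1, although these counts are too few for the filter. Without the filter its early change was -2.84 ± 0.83 and called lower (adjusted p = 0.0236 in edgeR's quasi-likelihood test). Later it had at most 11 counts, at hour 18. cut-5 stood at 0.504 CPM at hour 1 and 0.432 CPM at hour 6, with an early change of -0.10 ± 0.59, and reached 6.99 CPM at hour 17. cut-6 was at 0.193 to 0.540 CPM through hours 1 to 6 and reached 23.4 CPM at hour 9. Its early change of 1.73 ± 0.47 was called higher, but on 4 to 11 counts per library. That call was lost at 3 of the 9 alternative settings that tested it. The dauer collagens col-2 and col-40 were at 0 to 1.11 CPM in the dauer exit libraries and did not pass the filter over hours 1 to 6.

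Without the filter 2 further members were called lower over the first 6 hours, on very few counts. cut-3 had 14 counts at hour 1 and 0 at hour 6, with a change of -2.92 ± 0.98. cutl-4 had 12 counts at hour 1 and 0 at hour 6, with a change of -5.24 ± 1.43, a fitted value that depends on the prior count. Both had their large waves later, up to 1.99 CPM for cut-3 and 10.3 CPM for cutl-4.

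9 members were called higher over hours 1 to 6, where 10.0% of all genes tested were. cutl-18 went from 0.042 CPM at hour 1 to 1.67 CPM at hour 6 in unbroken steps, a change of 5.70 ± 0.67. cutl-9 went from 0.462 to 13.4 CPM in the same way, a change of 3.65 ± 0.71, and cutl-2 from 0.084 to 3.29 CPM, a change of 5.66 ± 0.76. These were followed by cutl-10 (3.76 ± 0.99), cut-6, cutl-29 (1.58 ± 0.31), cutl-12 (1.35 ± 0.32) and cutl-16 (1.06 ± 0.25). The call of cutl-10 was lost at 6 of 12 alternative settings. cut-2 was also called, at 6.26 ± 1.70, although it had at most 0.864 CPM by hour 6. Without the library of hour 6 the count of higher calls was 3, and without that of hour 5 it was 5. Of the 9, cutl-2, cutl-9 and cutl-29 belong to the group that peaked earliest in the N2 cycle and cut-6, cutl-18 and cut-2 to later groups. cutl-10, cutl-12 and cutl-16 were not called waving in N2. In the earliest group cutl-6 and cutl-25 were tested over hours 1 to 6 and not called, and cutl-7 did not pass the filter.

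Markers of the lateral seam cells also moved over dauer exit. Of the 7 seam genes listed, 6 passed the filter over the whole dauer exit course and 5 of them were called lower over it. The seam transcription factor gene ceh-16 had a mean of 3.09 ± 1.44 CPM (SD) over hours 1 to 3 and 0.0806 ± 0.0735 over hours 20 to 22. The means of elt-6 were 11.9 ± 2.3 and 1.41 ± 0.31 CPM. Over hours 1 to 6, however, none of the 6 was called lower and 2 were called higher, bro-1 and grd-10. Markers of other tissues moved as well: over the whole course both muscle markers were called higher, and 2 of 3 neuron markers and both pharynx markers lower. All 3 epidermis markers and 3 of 4 germline markers were called higher over it, and of the 2 intestine markers 1 was called higher and 1 lower. Over hours 1 to 6 only egl-3 (-1.69 ± 0.12) of the 3 neuron markers was called lower. Of the 2 pharynx markers only ceh-22 (-1.01 ± 0.19) was called lower. 1 of 2 muscle markers, myo-3 (3.96 ± 0.19), and 1 of 2 intestine markers were called higher in these hours. So were the 2 epidermis markers that passed the filter, while none of the 4 germline markers was called. Whether the share of RNA from any of these tissues had a part in the fall of cutl-14 was not tested.

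Over the whole 22 hours 12 members were called higher and 5 lower, beside 29.9% and 24.7% of all genes tested. The 5 lower were cutl-14, cutl-9 (-3.10 ± 1.39), cutl-3 (-3.01 ± 0.87), cutl-19 and cutl-29 (-1.68 ± 0.57). The 12 higher were cut-2, cut-4, cut-6, cutl-5, cutl-8, cutl-12, cutl-13, cutl-17, cutl-18, cutl-23, cutl-27 and cutl-28, for several of which the hour 1 library held a few counts at most, so that their fitted sizes are no measure of the change. For members that wave, this direction depends on the points of the wave at which the course began and ended. With a more flexible spline of 5 degrees of freedom 10 members were called lower and cutl-17 changed sign, from 4.89 ± 2.59 to -0.99. cutl-14 and cutl-19 are the members among the 5 whose highest level came at hour 1.

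The waves themselves returned after feeding. Over hours 11 to 22, 25 of the 35 members waved, with 31 passing the filter, while 32.7% of all genes tested did. Their amplitudes ran from 0.63 to 3.49 with a median of 1.73. cutl-5 had the largest: it was at 23.2 CPM at hour 11, 0.0958 CPM at hour 15 and 11.6 CPM at hour 19, with an amplitude of 3.49 ± 0.39. cut-2 followed with 2.99 ± 0.22, from 1618 CPM at hour 11 over 14.4 CPM at hour 15 to 899 CPM at hour 19. cutl-28 was at 1.23 CPM at hour 12 and 47.2 CPM at hour 16, with an amplitude of 2.77 ± 0.35, and cutl-8 had an amplitude of 2.69 ± 0.31. Among the other cut genes the amplitudes were 2.22 ± 0.23 for cut-6, 1.96 ± 0.21 for cut-5, 1.76 ± 0.35 for cut-3 and 1.73 ± 0.16 for cut-4. Larger waves among the cutl genes were those of cutl-4 (2.44 ± 0.43), cutl-6 (2.31 ± 0.30), cutl-27 (2.31 ± 0.24), cutl-17 (2.00 ± 0.25), cutl-9 (1.88 ± 0.33), cutl-18 (1.72 ± 0.23) and cutl-15 (1.55 ± 0.20). The smaller waves shared with N2 were those of cutl-25 (1.45 ± 0.29), cutl-23 (1.37 ± 0.28), cutl-22 (1.26 ± 0.20), cutl-3 (1.07 ± 0.08), cutl-20 (0.87 ± 0.13) and cutl-29 (0.72 ± 0.18).

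The waves of N2 and dauer exit could be laid on each other. Over the 3468 genes called waving in both courses, adding 6.59 h to the dauer exit hours brought the peaks together. On that clock 21 of the 21 members called in both peaked within 1 h of their N2 time, with a median absolute difference of 0.176 h, against 0.17 h and 98.9% within 1 h over all genes called in both. cut-3 differed most, by 0.885 h, and cut-2 by -0.007 h. The earliest and latest of the 21 were the same in both courses: cutl-25 peaked at 22.1 h on the N2 clock after dauer exit and at 21.9 h in N2, and cutl-3 at 28.8 and 28.5 h. A joint fit tested whether the wave of each gene differed between the courses in size or time. None of the 33 members tested was called different in edgeR's quasi-likelihood test, and none had an unadjusted p under 0.05; among all genes 877 had one and 0 were called.

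**Figure D3:**
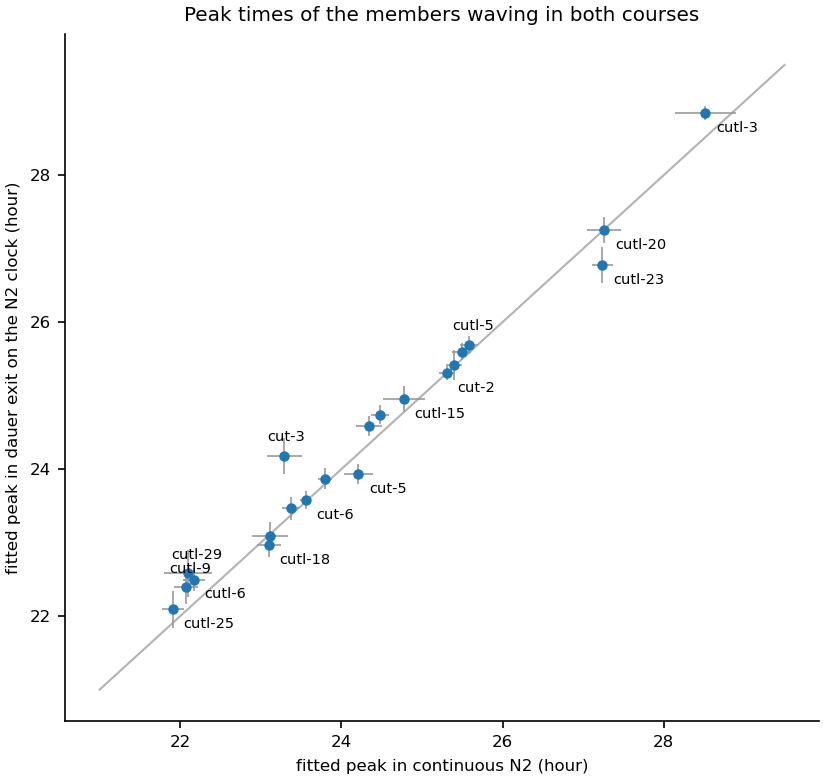
Fitted peak hour in continuous N2 (horizontal) against fitted peak hour in dauer exit after adding 6.59 h (vertical) for the 21 members called waving in both courses, with bars of 1 SE; the grey line marks equal times. Points lie along the line from cutl-25 to cutl-3, and cut-3 is the farthest from it, at 0.885 h.

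Of the calls in N2, 5 were not made in dauer exit (19.2%, against 15.7% over all genes), and of those in dauer exit 4 were not made in N2 (16%, against 31% over all genes). The N2 ones were cutl-2 and cutl-7, which did not pass the filter in dauer exit (without it cutl-2 was called, at 1.19 ± 0.30), and cutl-11, cutl-24 and cutl-26, with dauer exit amplitudes of 0.72 ± 0.31, 0.54 ± 0.26 and 0.51 ± 0.19. The dauer exit ones were cutl-12 (1.14 ± 0.27), cutl-14, cutl-16 (0.99 ± 0.22) and cutl-21 (0.63 ± 0.18). As the joint fit called none of the members it tested, these calls do not show a difference between the courses. In CPM, cutl-7 reached 1.73 CPM at N2 hours 30 and 31 but at most 0.370 CPM in dauer exit and 0.167 CPM in glp-4.

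Levels in successive waves were compared within each course by setting each hour of the second cycle against the same hour of the first, 8 h earlier. In N2 6 of the 33 members tested were called higher in the second cycle and 4 lower, beside 15.9% and 4.48% of all genes tested. In dauer exit hours 15 to 22 were set against hours 7 to 14. Of the 32 members tested there, 4 were called higher and 2 lower, beside 16.5% and 4.41%. The 4 higher in dauer exit were also higher in N2: cut-3, cut-4, cut-5 and cutl-18. This overlap was not set against that of all genes and is given as a description only.

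cutl-18 (WBGene00009830; chromosome V, 11313362 to 11316901) was called higher in the second cycle of both courses. Its N2 libraries of hours 21 to 28 held 2.88 to 8.86 CPM and those of hours 29 to 36 held 15.6 to 70.1 CPM. In dauer exit the ranges were 2.96 to 10.9 CPM at hours 7 to 14 and 11.8 to 67.9 CPM at hours 15 to 22. The second cycle was higher by 2.35 ± 0.21 (log2) in N2 and 2.50 ± 0.33 in dauer exit.

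cut-3 was higher in the second cycle by 3.00 ± 0.48 in N2 and 1.82 ± 0.47 in dauer exit, where its maxima were 0.497 and 1.99 CPM. cut-5 was higher by 1.59 ± 0.32 and 1.57 ± 0.52, with dauer exit maxima of 1.57 and 6.99 CPM. cut-4 was higher by 1.31 ± 0.19 and 1.67 ± 0.25, with dauer exit maxima of 26.9 and 57.2 CPM. The dauer exit call of cut-5 was lost with library size as the only scaling (adjusted p = 0.0504 in edgeR's quasi-likelihood test). The other members called higher in N2 were cutl-7 (3.38 ± 0.83), which did not pass the filter in dauer exit, and cutl-13 (1.24 ± 0.37), which had at most 19 counts.

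Of the lower calls cutl-29 was shared, at -1.03 ± 0.22 in N2 and -1.14 ± 0.28 in dauer exit. cutl-29 had maxima of 10.6 and 9.77 CPM in the N2 cycles but minima of 3.95 and 1.35 CPM. cut-2 was called lower in N2, right at the minimum change of 1 with an SE of 0.32, where its maximum went from 2464 to 858 CPM. In dauer exit its maximum also went from 2262 to 899 CPM, but its change over all hours was 0.30 ± 0.44 and was not called. The other lower call in dauer exit was cutl-14 (-1.64 ± 0.36), whose fall after feeding reaches into the first cycle. cutl-9 (-1.01 ± 0.36) and cutl-10 (-2.05 ± 0.50) were called in N2 alone. With the other scalings cut-2, cutl-9 and cutl-29 changed by -0.92 to -0.98 in N2, under the minimum of 1, and the split was 6 higher and 1 lower, cutl-10.

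**Figure D4:**
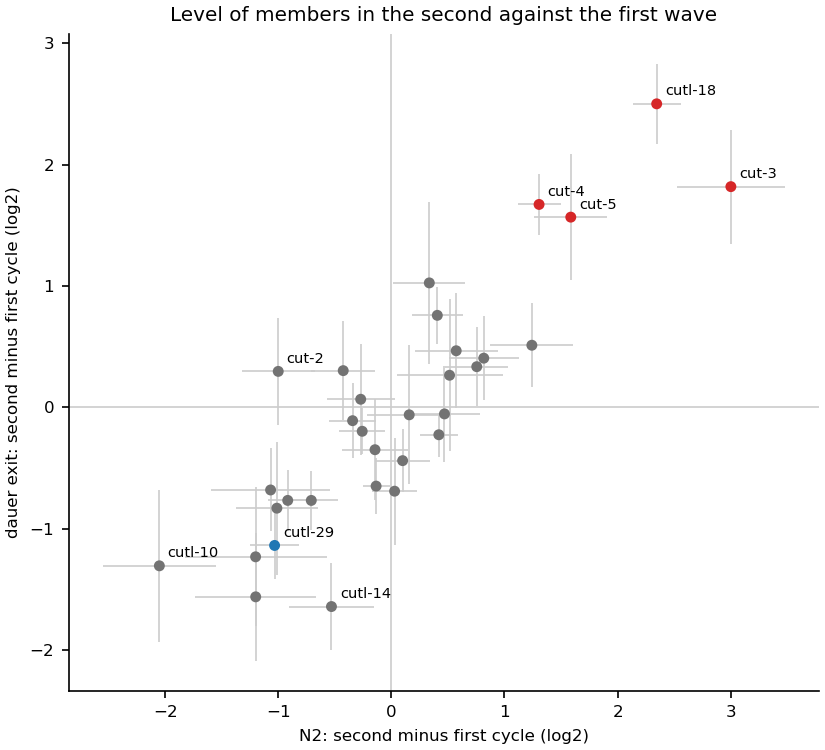
Fitted difference of the second from the first cycle (log2) in N2 (horizontal) and dauer exit (vertical) for the members tested in both, with bars of 1 SE. The red points, cut-3, cut-4, cut-5 and cutl-18, are called higher in both courses, and the blue point, cutl-29, lower in both.

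The trend over the whole N2 course, fitted beside the wave, called 6 members higher and 8 lower, beside 20.6% and 15.3% of all genes tested. The higher ones were cut-3 (4.88 ± 0.94 over the course), cut-4 (2.81 ± 0.40), cut-5 (2.82 ± 0.49), cutl-7 (5.56 ± 1.32), cutl-18 (4.37 ± 0.31) and cutl-22 (1.28 ± 0.42). The lower ones beside cutl-10 were cutl-3 (-2.31 ± 0.78), cutl-2 (-2.18 ± 0.77), cutl-29 (-1.88 ± 0.36), cutl-9 (-1.85 ± 0.52), cutl-19 (-1.79 ± 0.25), cut-2 (-1.56 ± 0.52) and cutl-20 (-1.38 ± 0.37). The call of cutl-3 was lost with either other scaling. cutl-10, with the largest change of the 8, fell by 3.90 ± 0.81 on the log2 scale, from 31.3 CPM at hour 21 and 43.7 CPM at hour 27 to 1.79 CPM at hour 36.

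In the glp-4 course no member was called waving, and neither was any other gene tested (0%). 31 members passed the filter, 5 of them had an unadjusted p under 0.05 and DESeq2 called 2, cut-4 and cutl-5. The course holds 7 libraries over 12 h, and the levels show a single rise and fall for many members. cut-6 went from 1.79 CPM at hour 40 over 2.21, 10.4 and 13.6 CPM (hour 46) to 9.25, 5.13 and 2.15 CPM at hour 52. cutl-28 went from 2.94 CPM over 5.00, 26.4 and 28.8 CPM (hour 46) to 18.3, 9.59 and 2.19 CPM. cutl-18 rose from 4.82 CPM to 38.4 CPM at hour 46 and was still at 18.1 CPM at hour 52.

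A curved term in the hour, added after seeing these levels, compared the middle of the course with the mean of its ends. It called 12 members higher in the middle and 1 lower, beside 6.62% and 3.71% of all genes tested. The largest were cutl-28 (3.61 ± 0.40), cutl-6 (3.17 ± 0.60), cutl-17 (3.06 ± 0.76), cutl-9 (2.99 ± 0.30) and cut-6 (2.82 ± 0.42). The others were cut-5 (2.16 ± 0.48), cutl-18 (2.13 ± 0.27), cutl-25 (1.74 ± 0.32), cutl-22 (1.47 ± 0.26), cutl-29 (1.42 ± 0.20), cutl-14 (1.16 ± 0.29) and cutl-10 (1.03 ± 0.26), and cutl-19 was the lower one (-1.25 ± 0.24). cutl-10 did not rise and fall. It fell at every step, from 22.0 CPM at hour 40 over 7.37 CPM at hour 46 to 0.452 CPM at hour 52, and only the curve on the log2 scale was called. That call was lost at 7 of 9 alternative settings, that of cutl-14 at 5 and those of cut-5 and cutl-17 at 4 each. Without the library of hour 46, the middle one, 4 were called higher, and without that of hour 52, 7 were. cutl-19 lost its call without any 1 of the libraries of hours 44, 46 and 52. Neither the 5 members with the last N2 peaks nor the 5 that peaked between N2 hours 25 and 27 were among the 12.

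The order of the N2 cycle can be followed in the glp-4 libraries by the hour of the highest level. The early N2 members cutl-6, cutl-9, cutl-25 and cutl-29 were highest at hour 44, cut-6, cutl-17, cutl-18, cutl-22 and cutl-28 at hour 46, and cut-2, cut-5, cutl-4, cutl-5, cutl-8, cutl-15 and cutl-27 at hour 48. cut-3, cut-4, cutl-11, cutl-24 and cutl-26 followed at hour 50. Exceptions were cut-3, which peaked in N2 between cutl-18 and cutl-28, and cutl-2, highest at hour 42, and cutl-7, highest at hour 50, among the early N2 members, and cutl-3, cutl-20 and cutl-23, highest at hours 40 to 42, among the late ones. cut-2 was also high at the start, with 268 CPM at hour 40, 72.3 CPM at hour 42 and 385 CPM at hour 48. These are single libraries 2 h apart, given as a description.

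**Figure D5:**
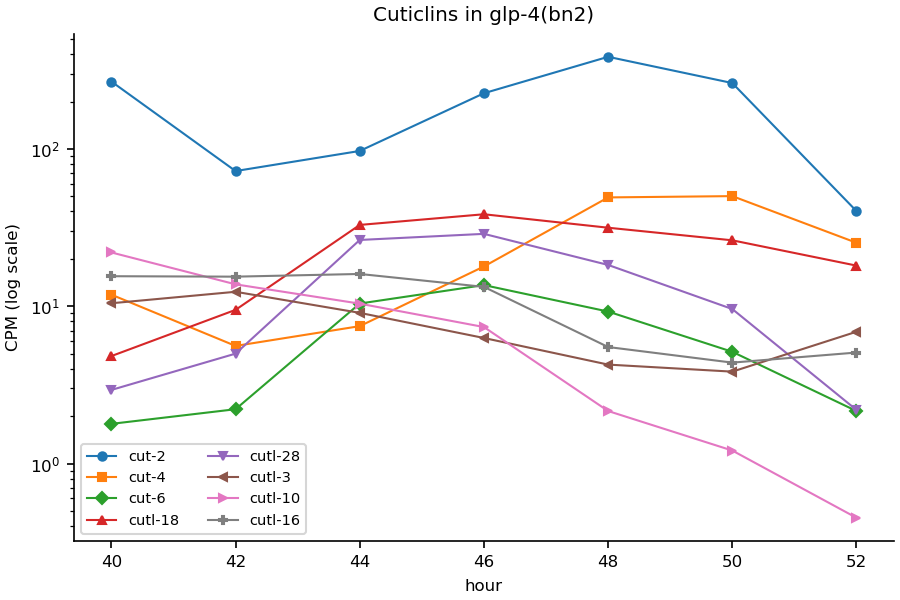
CPM, on a log axis, of 8 members in the 7 glp-4(bn2) libraries, 1 library per point. cutl-28 and cut-6 rise to hour 46 and fall to 2.19 and 2.15 CPM at hour 52, cut-2 and cut-4 are highest at hours 48 and 50, and cutl-10 falls throughout, from 22.0 to 0.452 CPM.

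The linear trend in glp-4 called 3 members higher and 3 lower, beside 5.17% and 1.53% of all genes tested. The lower ones were cutl-10 (-5.42 ± 0.54), cutl-2 (-5.33 ± 1.14) and cutl-16 (-2.35 ± 0.27), and the higher ones cut-4 (3.62 ± 0.46), cutl-5 (3.40 ± 0.52) and cutl-12 (2.52 ± 0.41). cutl-10 fell in each of the 6 steps between libraries. These counts rest on single libraries: without any 1 of those from hour 42 to hour 50 no member was called higher and at most 1 lower, and without that of hour 52, 13 were called higher and 4 lower.

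Further gene lists were followed as well. Of 12 genes of ZP and other proteins of the precuticle, the temporary matrix laid down before the cuticle, 10 were in the table, and 9 of these waved in N2 and 9 in dauer exit. All but ram-5 (25.2 h) of the 9 peaked early in the N2 cycle: noah-1, a ZP protein gene, ranged from 14.6 over a median of 412 to 2303 CPM in N2 and peaked at 22.4 h with an amplitude of 2.61 ± 0.30, beside noah-2 at 22.4 h, let-653 at 21.6 h and fbn-1 at 21.2 h. cutl-6, cutl-9, cutl-25 and cutl-29 peaked at like hours, from 21.9 to 22.2 h, ahead of cut-2. 9 of the 10 were called higher over dauer exit hours 1 to 6, and 9 of the 10 higher in the middle of the glp-4 course.

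Of 9 genes listed as tied to cross-linking, 8 passed the filter in N2 and 6 waved. The peroxidase gene mlt-7 ranged from 20.7 over 73.3 to 411 CPM and peaked at 27.0 ± 0.15 h, doxa-1 at 27.0 h and pxn-2 at 28.4 h, later than cut-2, while skpo-2 peaked at 24.6 h. The dual oxidase gene bli-3, whose enzyme makes the oxidant for tyrosine cross-links, stayed between 33.0 and 48.9 CPM with an amplitude of 0.15 ± 0.06 that was not called. The 4 proprotein convertase genes bli-4, kpc-1, aex-5 and egl-3 were not called waving in either N2 course, with N2 amplitudes of 0.08 to 0.29. Over dauer exit hours 1 to 6 kpc-1 and egl-3 were called lower, by 1.12 ± 0.16 and 1.69 ± 0.12 on the log2 scale. egl-3 is also among the neuron markers above, and whether any of these 4 genes acts on cuticlins was not tested.

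Some values could mix reads of neighbours. The exons of cutl-20 overlap those of shc-1 on the same strand over 221 bases in build WBcel235. 9 other members overlap a gene of the opposite strand by 9 to 84 exon bases, cut-3 and cutl-18 among them; the library kit keeps strand, but the sources used here do not say how the authors counted it. cutl-14 overlaps no other gene of the table.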

How the data were processed

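Libraries were made from polyadenylated RNA with a strand-keeping kit, per the labels' protocols; the aligner, the counting tool and the authors' build were not given in the sources used here. The authors deposited a table of raw counts for 20182 genes in 45 libraries, which was the base of all tests. The authors also deposited a log2 table, which equals log2 of the count scaled to the mean total of its course plus 8, with a largest difference of 5e-05; it was not tested. Symbols were matched by WormBase identifier for 18778 genes (93.0%), and coordinates and exon lengths come from the WBcel235 annotation. CPM is the count divided by the library total, times 1e6.

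Tests used edgeR 4.0.16 in R 4.3.3 (quasi-likelihood F-test, filterByExpr, TMM scaling, Benjamini-Hochberg adjustment over all genes tested), fitted per course: an 8 h cosine and sine with a linear term, a natural spline of 3 degrees of freedom for the whole dauer exit course, a line over hours 1 to 6, a second-cycle term and a curved term. Changes were called at an adjusted p under 0.05 and at least 1 on the log2 scale. Errors are SE of the fits unless marked SD. The fits were tested on simulated counts. Alternatives were other scalings, no filter, DESeq2 1.42.0, other periods, spans and splines, and leaving out libraries in the short fits. The second-cycle and curved tests were added after seeing the data.

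Every cut and cutl gene is accounted for; per-library values are given for cut-1 to cut-6 and for the called members with the largest effects, and fitted values for the other called members, except rises over the whole dauer exit course, which are named only. The rule had asked for values in full for every called member. Members and gene lists were chosen with earlier results of these data known. The genes let-4 and dyf-7 of the precuticle list and the collagen gene col-6 were not analysed here.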

Additional observations from a re-analysis of the deposited data

Results flagged for a closer look

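In the glp-4 course cut-1 stood at 0.2085 CPM in the library of hour 50, which is 5 counts, while the next highest of the other 6 libraries held 0.0319 CPM. This library was picked out because its gap to the next covers 0.847 of the range of the 7 libraries, above the Dixon critical value. Chance gives a gap above that value in about 1 of 20 groups. The rule was run on each member with more than 3 counts in the glp-4 course. With that many members screened, 1 flag can be due to chance.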

How the results depend on the processing

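Of 2459 alternative values for single members, 144 lost a call, 85 gained one in the same direction and 2226 made no difference to the call, 53 of the latter being uncalled values that changed sign. 4 reversed with a call on at least 1 side: over whole dauer exit with a spline of 5 degrees of freedom cutl-17 (-0.99), cutl-15 (-2.06) and cutl-10 (1.90), and cutl-23 in the early hours, which ranged from -1.95 to 1.51 without single libraries; the cause was not tested. With a period of 7 h the waving members numbered 16 in N2 and 11 in dauer exit, where leaving out the trend term gave 16. With a period of 9 h 1 member waved in glp-4, and with DESeq2 2 did. The 5-degree spline called 10 members lower over the whole of dauer exit. Over the early hours the lower calls numbered 3 with library size only, 4 with no filter, 3 with DESeq2, 2 over hours 1 to 4 and 2 over hours 1 to 8, and the higher calls numbered 1 over hours 1 to 4. DESeq2 called 5 members higher in the glp-4 trend. Lower calls of the second N2 cycle numbered 1 with either other scaling, and those of dauer exit 5 with a lag of 9 h. A clock shift 1 h earlier or later gave 12 and 15 of 33 members whose waves differed between the courses, beside 19.8% and 15.2% of all genes tested.

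Leaving out each library in turn gave 3 to 9 higher and 1 to 2 lower early calls, 0 to 0 waving members in glp-4, 0 to 13 higher and 0 to 4 lower members in the glp-4 trend, and 4 to 14 higher and 0 to 1 lower members in its curved term. Other scalings shifted the members' changes by a median of 0.15 in the N2 trend (DESeq2's size factors), and library size only by -0.14 in whole dauer exit, -0.18 in its early hours and -0.16 in the glp-4 trend. Between courses, no paired analysis was possible because replicate numbers only name time points of different clocks; within a course, the second-cycle fits pair each hour with the one 8 h earlier. Members with few counts, such as cut-1, cutl-1, cutl-7 and cutl-13, are limited by depth.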
